A study of Homo sapiens with 4 samples.

Results

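The genes described here are 10 genes of the cellular response to low oxygen, measured by RNA-Seq in the breast cancer cell lines MDA-MB-231 and LM2-4175. They are 6 regulators of the hypoxia-inducible factors (HIF), namely HIF1A, EPAS1, ARNT, EGLN1, EGLN3 and VHL, and 4 genes often used as markers of hypoxia, namely ADM, CA9, NDRG1 and BNIP3. They were taken by gene symbol from the 57815 genes of the deposited table, in which each symbol occurred once. MDA-MB-231 is a line of triple-negative breast cancer, and LM2-4175 is a line isolated from it that metastasizes to the lung. Each line had 2 libraries, 4 in all, from untreated cells grown in DMEM with foetal bovine serum in a CO2 incubator. The oxygen level of the cultures was not given in the sources used here, and no hypoxic treatment is named in the labels.

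HIF is a transcription factor made of an oxygen-sensitive alpha subunit and a stable beta subunit. When oxygen is present, prolyl hydroxylases of the EGLN family modify the alpha subunit, the von Hippel-Lindau protein VHL binds the modified form and a ubiquitin ligase marks it for degradation. When oxygen is low, the alpha subunit accumulates, pairs with ARNT and switches on genes for glycolysis, blood vessel growth, pH control and mitochondrial turnover. The step that senses oxygen acts on the protein, so the mRNA levels given here are not a measure of HIF activity. In bulk RNA, fewer cells that express a gene and less of its RNA in each cell cannot be told apart.

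The deposited values are FPKM, that is fragments scaled to transcript length and to the number of mapped fragments, with 1 value and a pair of bounds for each gene in each cell line. As the libraries of a line were combined in this value, no difference below has a replicate check, and it is not stated in the sources used here if the bounds include variation from library to library. Changes are log2 differences of FPKM + 1, LM2-4175 minus MDA-MB-231. Genes with a mean of at least 0.5 FPKM were tested, and a call, higher or lower, needed both a change of 1.5-fold or more and bounds that were apart between the lines. The 95% intervals of changes were calculated from the distance between FPKM and upper bound, taken as 2 standard errors, and share the limits of the bounds. For the 13911 genes tested this distance had a median of 38.6% (MDA-MB-231) and 38.1% (LM2-4175) of the FPKM. VIM, a marker of mesenchymal cells, had 1355 FPKM in MDA-MB-231 and 1768 FPKM in LM2-4175, whereas the hormone receptor genes ESR1 and PGR were below 0.1 FPKM in both and ERBB2 had 35.0 and 22.8 FPKM. Of the other cancer cell markers examined, CD44 had 469.7 and 355.0 FPKM, and EPCAM, an epithelial marker, was called lower, with 12.3 and 4.93 FPKM. Of 6 marker genes of blood and endothelial cells that were found, 1 passed the filter, CD14, with 1.17 and 1.75 FPKM.

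Promoter sequences are shown for 4 of the 10 genes: ADM, the gene called higher, EGLN3, the gene with the largest difference downwards, BNIP3, with the largest number of matches to the core of the HIF binding sequence, and CA9, a classical HIF target with a match close to its start. The core was searched as ACGTG and GCGTG on both strands of the 250 bases before the RefSeq start of a gene, and matches are in capitals. Printed are stretches outside annotated exons, except for CA9, for which the last 30 bases before the start are given.
ADM (GRCh37, chr11:10326425-10326619, plus strand): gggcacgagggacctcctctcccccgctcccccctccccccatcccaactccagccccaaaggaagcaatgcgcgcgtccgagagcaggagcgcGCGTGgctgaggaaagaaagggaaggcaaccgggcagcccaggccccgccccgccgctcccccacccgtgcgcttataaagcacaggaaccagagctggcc
BNIP3 (GRCh37, chr10:133795472-133795677, minus strand): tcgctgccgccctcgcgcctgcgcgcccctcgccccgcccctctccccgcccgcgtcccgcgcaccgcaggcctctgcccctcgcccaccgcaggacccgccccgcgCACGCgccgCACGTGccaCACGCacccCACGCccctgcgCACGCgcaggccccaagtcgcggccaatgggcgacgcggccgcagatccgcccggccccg
CA9 (GRCh37, chr9:35673895-35673924, plus strand): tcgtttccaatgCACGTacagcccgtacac
EGLN3 (GRCh37, chr14:34420288-34420530, minus strand): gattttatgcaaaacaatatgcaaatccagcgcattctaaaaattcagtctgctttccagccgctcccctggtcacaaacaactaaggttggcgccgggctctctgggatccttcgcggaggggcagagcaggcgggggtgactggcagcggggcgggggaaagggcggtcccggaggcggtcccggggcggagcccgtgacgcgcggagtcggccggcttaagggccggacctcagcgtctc

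Each of these sequences except that of EGLN3 holds at least 1 match. The match of ADM lies 101 to 97 bases before the start and that of CA9 18 to 14 bases before it. BNIP3 had 6 matches between 143 and 100 bases before its start, of which 2 overlap in the palindrome CACGTG, which is also an E-box. RefSeq promoters were found for 8 of the 10 genes, with 9 starts in all because HIF1A had 2. HIF1A, EPAS1 and EGLN1 had 1 match each, in HIF1A at 1 of its starts. ARNT had none, and VHL and NDRG1 were not matched in the promoter table. So 6 of 9 starts held a match, and of 35116 promoters of the same length 43.2% did. ACGTG was in 18.5% of these promoters and GCGTG in 32.2%, counting the 7.52% that held both. A match is a description of these letters and not a measured binding site.

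Of the 10 genes, 1 was called, ADM, which was higher in LM2-4175. By the same rule 9.27% of all genes tested were called, 4.67% as higher and 4.61% as lower, so 1 of 10 is close to the share among all genes. The median change of the 10 genes was -0.02 and that of all genes tested was -0.04 on the log2 scale. Changes under 1.5-fold were found for 8 of the 10 genes (80%) and for 77.9% of all genes tested. All 10 genes passed the filter on low values. The plot of levels shows that the order of the genes was much the same in the cell lines.

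**Figure D1:**
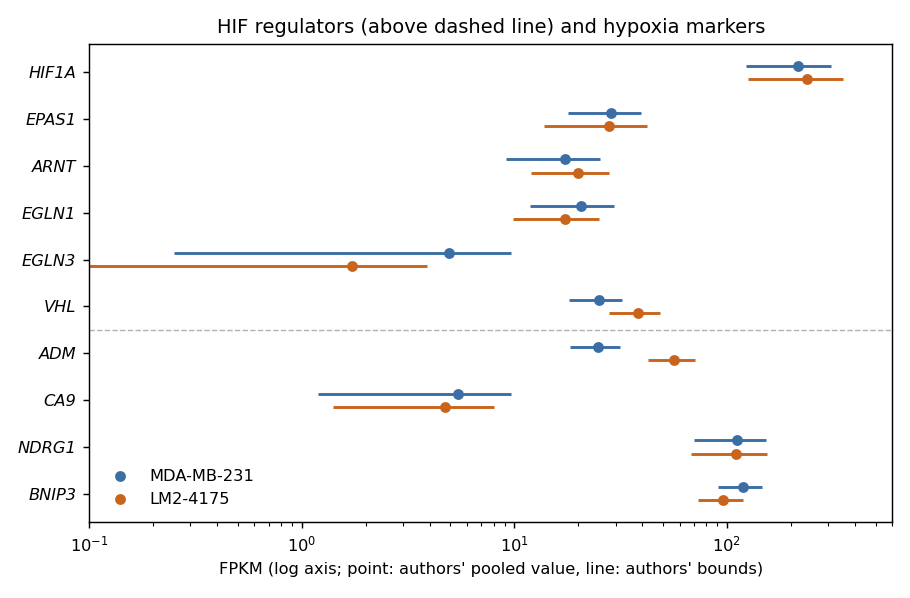
FPKM of the 10 genes on a log axis, with points for the pooled value of each cell line and lines for the authors' bounds, where a lower bound of 0 is drawn at the left edge. The lines of ADM do not overlap, and those of the other 9 genes do.

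HIF1A encodes the alpha subunit that most cells use. It had an FPKM of 216.2 (bounds 123.1 to 309.4) in MDA-MB-231 and of 238.7 (125.1 to 352.2) in LM2-4175, the highest level of the 10 genes in both lines. It ranked above 97.0% and 97.8% of the genes tested. Its change was 0.14 with a 95% interval of -0.76 to 1.05, so the data allow a difference of more than 1.5-fold in either direction. The gene (ENSG00000100644) lies on the plus strand of chromosome 14 (GRCh37, 62162231 to 62214977). Exons of HIF1A-AS1, HIF1A-AS3 and a lncRNA on the same strand overlap 11.3% of its exon bases. Without stated use of strand in counting, reads of HIF1A-AS1 and HIF1A-AS3 cannot be told apart from those of HIF1A there. Reads of the lncRNA on the same strand would not be separated by strand either. In MDA-MB-231 and LM2-4175, HIF1A-AS1 had 0.397 and 0.489 FPKM, HIF1A-AS3 1.69 and 2.00, and this lncRNA 8.39 and 16.4.

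EPAS1 encodes HIF-2 alpha, the second oxygen-sensitive subunit. Its FPKM was 28.5 in MDA-MB-231 (17.8 to 39.3) and 27.9 in LM2-4175 (13.9 to 41.9), with a change of -0.03 (95% interval -0.89 to 0.83). The gene (ENSG00000116016, chromosome 2, 46520806 to 46613836, plus strand) shares no exon base with another gene. HIF1A was thus 7.58 times as high as EPAS1 in MDA-MB-231 (95% interval 4.33 to 13.3) and 8.56 times as high in LM2-4175 (4.34 to 16.9). The third alpha subunit gene, HIF3A, was below 0.5 FPKM in both lines, and HIF1A made up 88.3% and 89.5% of the summed FPKM of the 3 genes.

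ARNT, also known as HIF-1 beta, is the partner of both alpha subunits. Its FPKM was 17.2 in MDA-MB-231 (9.18 to 25.3) and 19.9 in LM2-4175 (11.9 to 27.9). The bounds overlap, and the change was 0.20 (95% interval -0.63 to 1.02). Its exons (ENSG00000143437, chromosome 1, 150782189 to 150849184, minus strand) overlap no other gene. Its relative ARNT2, which can also pair with alpha subunits, had 18.9 FPKM (8.15 to 29.7) in MDA-MB-231 but 4.69 FPKM (2.16 to 7.23) in LM2-4175 and was called lower, with a change of -1.81. ARNT was 0.912 times as high as ARNT2 in MDA-MB-231 and 4.24 times as high in LM2-4175, and the difference of these ratios on the log2 scale was 2.22 (95% interval 0.81 to 3.63).

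EGLN1 encodes PHD2, the main HIF prolyl hydroxylase in normal oxygen. Its FPKM was 20.6 in MDA-MB-231 (11.8 to 29.4) and 17.4 in LM2-4175 (9.82 to 24.9), a change of -0.23 (95% interval -1.05 to 0.59). In the annotation, 55.8% of its exon bases (ENSG00000135766, chromosome 1, 231499497 to 231558033, minus strand) are shared with a protein-coding gene on the same strand, ENSG00000287856, that is not listed in the table used here.

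EGLN3 encodes PHD3, a hydroxylase that is itself induced in hypoxia. Its FPKM was 4.94 in MDA-MB-231 (0.251 to 9.63) but 1.73 in LM2-4175 (0 to 3.86). This is the largest difference downwards of the 10 genes, a change of -1.12 or 2.85-fold in FPKM, yet the bounds overlap and the 95% interval of -2.69 to 0.45 includes 0. The upper bound lay 94.9% above the FPKM in MDA-MB-231 and 123% above it in LM2-4175, the widest of the 10 genes. The gene (ENSG00000129521) spans 34393433 to 34931980 of chromosome 14, on the minus strand, and overlaps no exon of another gene. With the fold alone, a rule by which 22.1% of all genes tested (10.3% higher and 11.8% lower) and 2 of the 10 genes were called, EGLN3 was lower and ADM was higher in LM2-4175.

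EGLN2, which encodes PHD1, had the highest FPKM of the 3 HIF prolyl hydroxylases in both lines, with 47.7 in MDA-MB-231 (33.3 to 62.0) and 29.1 in LM2-4175 (20.2 to 38.1). All 3 were listed lower in LM2-4175, as were 54.5% of all genes tested, and none was called. The change of EGLN2 was -0.69, and its 95% interval of -1.28 to -0.10 lay below 0, but its bounds overlap. The sum of the 3 genes, for which no interval was calculated, was 73.2 FPKM in MDA-MB-231 against 48.2 FPKM in LM2-4175. EGLN2 held 65.1% and 60.4% of the sum, EGLN1 28.1% and 36.0%, and EGLN3 6.75% and 3.59%. HIF1AN, the asparagine hydroxylase that blocks coactivator binding, had 18.6 and 22.2 FPKM with wide bounds of 4.46 to 32.8 and 2.87 to 41.5.

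**Figure D2:**
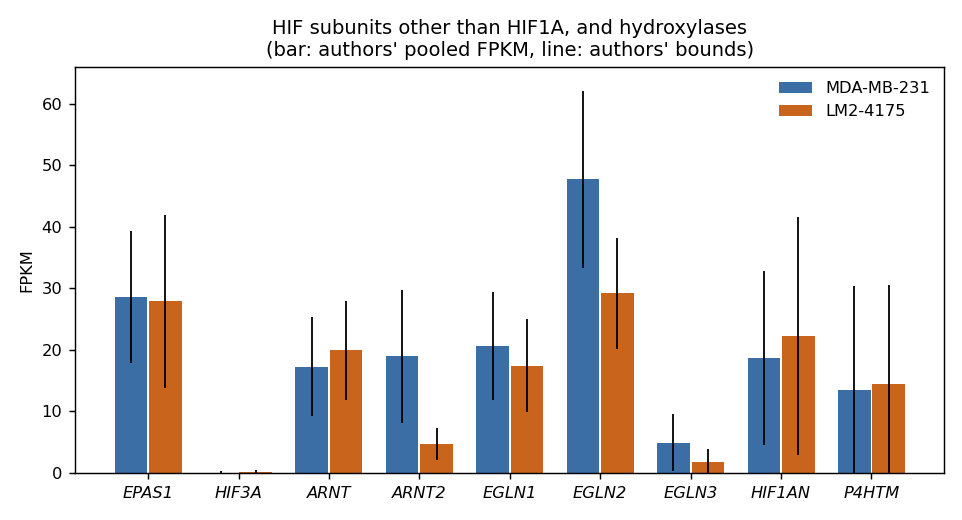
FPKM of the HIF subunit genes other than HIF1A and of the HIF hydroxylase genes, as bars from 0 with the authors' bounds as lines. ARNT2 is the 1 gene whose lines do not overlap, with 18.9 FPKM in MDA-MB-231 and 4.69 FPKM in LM2-4175.

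VHL encodes the part of the ubiquitin ligase that recognizes hydroxylated HIF. Its level was 25.1 FPKM in the parental line, between bounds of 18.1 and 32.2, and 38.2 FPKM in LM2-4175, between 27.9 and 48.5. The ratio of FPKM was 1.52, but on the scale of FPKM + 1 the change of 0.58 lay just under 1.5-fold, and the bounds overlap, so VHL was not called. Its 95% interval of 0.05 to 1.12 lay above 0. By a rule that asks only for a difference beyond the 95% limit of the standard errors, VHL and ADM were higher in LM2-4175, and 16.7% of all genes tested were called (7.58% higher and 9.09% lower). VHL (ENSG00000134086, chromosome 3, 10183462 to 10195351, plus strand) shares 23.5% of its exon bases with a lncRNA gene on the opposite strand that is not listed in the table used here. Among the 4 partners of VHL in the ligase, CUL2, RBX1 and the elongin genes TCEB1 and TCEB2, no call was made, and their changes lay between -0.45 and 0.31.

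**Figure D3:**
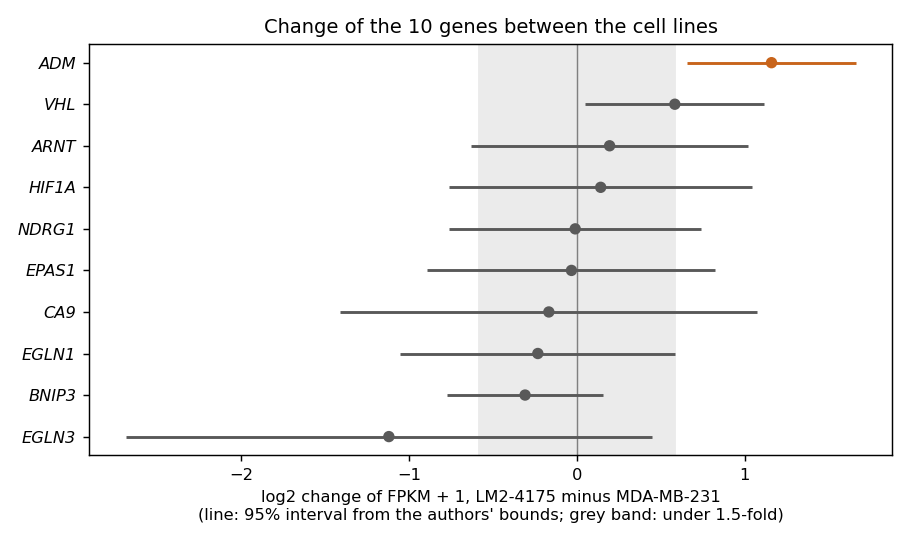
Log2 change of FPKM + 1 of each of the 10 genes, LM2-4175 minus MDA-MB-231, with 95% intervals from the authors' bounds as lines and a grey band for changes under 1.5-fold. ADM lies at 1.16 with an interval of 0.66 to 1.66, VHL at the edge of the band, and EGLN3 at -1.12 with an interval that includes 0.

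ADM encodes adrenomedullin, a secreted peptide that widens blood vessels and promotes their growth. It rose to 56.6 FPKM in LM2-4175 (42.3 to 70.9) from 24.8 FPKM in MDA-MB-231 (18.2 to 31.4). The ratio was 2.28, and the change was 1.16 (standard error from the bounds 0.26). In the order of the 10 genes it stood at place 6 in MDA-MB-231 and at place 4 in LM2-4175, and among all genes tested it went from percentile 68.9 to 86.9. The gene (ENSG00000148926) lies on the plus strand of chromosome 11 (10326620 to 10328944), and no exon of another gene overlaps it. ADM was called higher under all 12 alternatives of the calculation, with changes of 1.16 to 1.26. Many of these could not have removed the call. At its mean of 40.7 FPKM no filter tried could drop it, and adding less than 1 to the FPKM only raises its change. The fold alone, the bounds alone and the rule of standard errors are each weaker than the joint rule. Only the fold threshold of 2 and the changes of scaling could have removed it. Adrenomedullin acts through the receptor CALCRL with RAMP2 or RAMP3, and these 3 genes, named after their values were seen, were below 0.5 FPKM in both lines. Of the 6 genes listed for the adrenomedullin system, 3 passed the filter and ADM was the 1 called. By the same rule 9.27% of all genes tested were called, and 3 genes are few.

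CA9 encodes carbonic anhydrase IX, an enzyme of the cell surface that regulates pH. Its FPKM was low, 5.44 in MDA-MB-231 (1.19 to 9.69) and 4.74 in LM2-4175 (1.41 to 8.06), and the change of -0.17 had an interval of -1.41 to 1.08. ARHGEF39 on the opposite strand, with 4.35 and 5.82 FPKM, overlaps 35.7% of the exon bases of CA9 (ENSG00000107159, chromosome 9, 35673925 to 35681156, plus strand). Because use of strand in counting is not stated, reads of these genes cannot be told apart in that part. CA12, another HIF-responsive enzyme of the cell surface, was higher than CA9, with 13.1 FPKM (9.57 to 16.6) and 16.3 FPKM (12.1 to 20.5), and was not called either. Of 15 carbonic anhydrase genes, 6 passed the filter and 1 was called, against 9.27% of all genes tested, and 6 genes are few. This was the cytosolic enzyme gene CA2, which went from 0.657 to 3.70 FPKM (ratio 5.63).

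NDRG1 encodes a stress-responsive protein linked to differentiation and metastasis. It had nearly the same level in the cell lines, 111.5 FPKM (70.1 to 152.8) and 110.7 FPKM (67.8 to 153.6) in LM2-4175. The change of -0.01 had a 95% interval of -0.76 to 0.74, so these bounds leave room for a difference of more than 1.5-fold either way. NDRG1 (ENSG00000104419, chromosome 8, 134249418 to 134314265, minus strand) made up 72.0% and 72.1% of the summed FPKM of the 4 NDRG genes. A lncRNA on the same strand shares 6.27% of its exon bases. None of the 3 NDRG genes that passed the filter was called.

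BNIP3 encodes a protein of the outer mitochondrial membrane that promotes mitophagy, the removal of mitochondria. Its FPKM was 118.7 in MDA-MB-231 (91.2 to 146.2) and 95.7 in LM2-4175 (73.0 to 118.3). The bounds, the narrowest of the 10 genes relative to the FPKM, overlap, and the change was -0.31 (95% interval -0.77 to 0.16). BNIP3 (ENSG00000176171, chromosome 10, 133781188 to 133795471, minus strand) shares no exon base with another gene. Its homologue BNIP3L had 61.4 FPKM (41.6 to 81.1) and 53.9 FPKM (35.4 to 72.4), a change of -0.18. Of 7 mitophagy genes that passed the filter, BNIP3 and BNIP3L included, 6 were listed lower in LM2-4175 and none was called. Among all genes tested 54.5% were listed lower. The changes of the 7 genes lay between -0.53 and 0.11, with a median of -0.13.

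In the order of levels, HIF1A, BNIP3 and NDRG1 stood at the top in both lines and CA9 and EGLN3 at the bottom. In MDA-MB-231 the bounds of neighbours in this order overlap except between NDRG1 and EPAS1. In LM2-4175 they are apart between BNIP3 and ADM and between EGLN1 and CA9. The highest gene was 43.8 times as high as the lowest in MDA-MB-231 and 138 times in LM2-4175, where EGLN3 is the lowest and has the widest bounds.

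In the oxygen-sensing pathway as a whole, ARNT2 and CITED2 were called. Of 27 genes that encode HIF subunits, hydroxylases, VHL ligase subunits and other regulators, the 6 regulators above included, 25 passed the filter and 2 were called (8%, against 9.27% of all genes tested), both lower in LM2-4175. Besides ARNT2 this was CITED2, which encodes a protein that competes with HIF for the coactivators p300 and CBP and is itself HIF-induced. CITED2 fell to 29.7 FPKM (22.7 to 36.7) from 58.0 FPKM (44.7 to 71.3), a change of -0.94. The 25 genes had a median change of -0.02, and 13 of them were listed lower (52%, against 54.5% of all genes tested). The genes of the coactivators, EP300 and CREBBP, were not called, with changes of -0.04 and -0.20.

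Among 50 other genes known to respond to hypoxia, in 51 entries because MRPS17 occurs under 2 gene IDs, 49 entries passed the filter. Of these, 2 were called higher and 5 lower in LM2-4175, or 14.3%, against 9.27% of all genes tested (4.67% higher and 4.61% lower). VEGFA, the vessel growth factor, rose from 37.1 FPKM (24.3 to 49.8) to 242.8 FPKM (152.6 to 333.0). The nuclear receptor gene RORA rose from 0.115 FPKM (0 to 0.401) to 1.30 FPKM (0.450 to 2.15). RORA had a mean of 0.708 FPKM and passed the filter only through its level in LM2-4175. With a minimum mean of 1 FPKM it was not tested, and 1 of the hypoxia targets was called higher. The genes called lower were CXCR4, a chemokine receptor gene (9.56 to 0.254 FPKM), AK4, a mitochondrial adenylate kinase gene (48.7 to 19.9 FPKM), LOX, a collagen crosslinking enzyme gene (41.7 to 18.4 FPKM), CITED2 and the glucose transporter gene SLC2A1 (181.5 to 95.5 FPKM). CXCR4 had a mean of 4.91 FPKM and passed the filter only through its level in MDA-MB-231. With a minimum mean of 5 FPKM it was not tested, and 4 of the hypoxia targets were called lower. Of the 49 entries, 35 (71.4%) were listed lower, against 54.5% of all genes tested, and their median change was -0.19. With quantile normalization the median was -0.08 and 30 were lower. A group of 9 glycolysis and glucose transport genes of the list was formed after the values were seen. Of these, 8 were listed lower, against 54.5% of all genes tested, and SLC2A1 was called. The group left out PFKFB3 and PFKFB4 of the same list, with changes of 0.45 and 0.17, and PDK1, with -0.58. The choice of genes thus shaped this count.

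**Figure D4:**
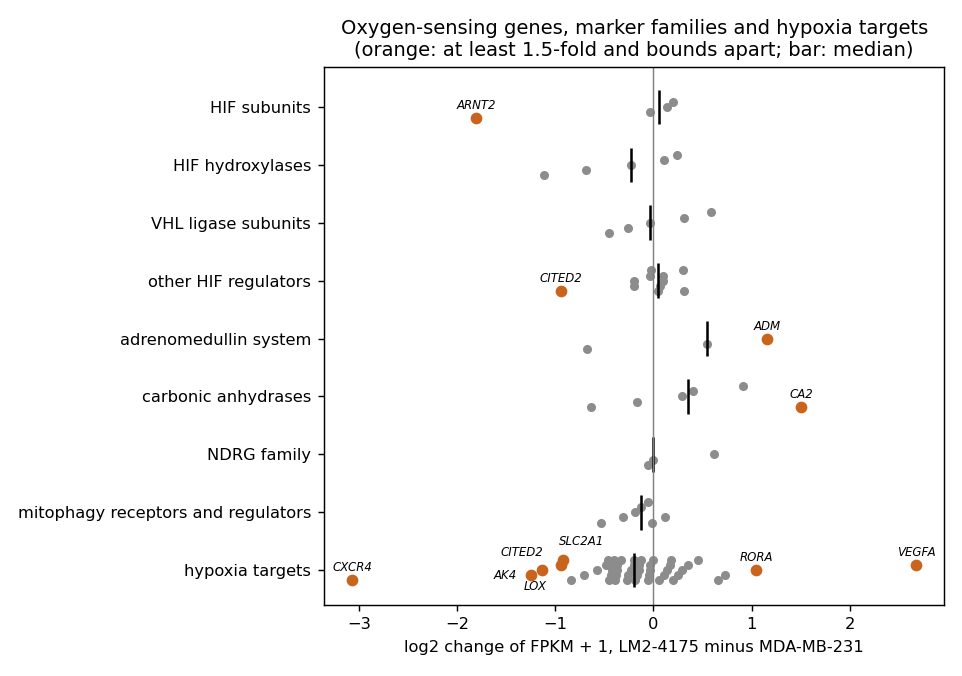
Log2 change of FPKM + 1, LM2-4175 minus MDA-MB-231, of the genes that passed the filter in 9 gene lists, with orange points for genes called and black bars for medians. VEGFA lies farthest to the right at 2.68 and CXCR4 farthest to the left at -3.07, while most genes lie near 0.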

How the data were processed

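RNA-Seq was done on 2 libraries each of MDA-MB-231 and LM2-4175. The authors sequenced paired-end reads, aligned them to hg19 with TopHat and quantified GENCODE genes as FPKM with Cufflinks and Cuffdiff. The deposited table holds for each gene and cell line 1 FPKM, its bounds and a status, such as OK or FAIL. The libraries were pooled in it, so no test between replicates was made, and the number of fragments behind a value is not known. The labels do not say whether libraries came from separate cultures. The method of scaling libraries and the use of strand were not given in the sources used here.

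Changes were calculated in Python 3.11.15 with NumPy 2.4.6 and pandas 2.3.3 on log2(FPKM + 1), which understates changes of low genes, for 13911 genes with status OK in both lines and a mean of at least 0.5 FPKM. Figures were drawn with Matplotlib 3.10.9. The calls were also tried on simulated data, as a check of the calculation only. There the bounds matched the simulated spread, so error rates in the real libraries were not tested. Gene positions and overlaps of exons come from GENCODE 44 on GRCh37, the same build as hg19. Promoters were taken from RefSeq on GRCh38.p14, 250 bases before and 50 after each start, and the printed stretches were placed on GRCh37 by exact match.

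The 10 genes, the lists and the rules were chosen with earlier results of these data known. Named are the 10 genes, the genes called in each list (up to 5 each way), EGLN2, ARNT2, HIF3A, HIF1AN, BNIP3L and CA12, and overlapping genes. Any further gene was picked with its values in view. PECAM1 was not analysed here.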

Additional observations from a re-analysis of the deposited data

How the results depend on the processing

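ADM was called higher under all 12 alternatives tried, and no other gene of the 10 was called under more than 1 of them. For ADM only the fold threshold of 2 and the changes of scaling could have given another outcome. The calls under the other alternatives moved as follows. With the fold of 1.5 alone, the 10 genes gave 1 lower call (EGLN3), the oxygen-sensing list 4 calls, the marker gene families 6, the hypoxia targets 11 and all genes 3074. With a difference beyond the 95% limit of the standard errors, the 10 genes gave 2 higher calls (ADM and VHL), the oxygen-sensing list 4, the marker gene families 5 and all genes 2318. With a fold threshold of 2, the oxygen-sensing list gave 1 call, ARNT2, and all genes 853. At a mean of at least 5 FPKM, the marker gene families gave 1 call, ADM, and all genes 764. These differences follow from the construction of the rules. In the report, the oxygen-sensing list gave 2 calls, the marker gene families 2, the hypoxia targets 7 and all genes 1290.

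The small changes of EPAS1 and NDRG1 had either sign. EPAS1 ranged from -0.03 to 0.05 and NDRG1 from -0.01 to 0.07 on the log2 scale over 5 alternatives of pseudocount and scaling, and the other 8 genes kept their sign. Scaling to the same sum (TPM) moved the share of higher calls among all genes from 50.3% to 57.8%, and a minimum mean of 5 FPKM moved it to 42.0%. No paired analysis was possible because the table holds 1 pooled value per cell line, and leaving out a replicate was not run for the same reason. The depth behind each value is unknown, and precision is lowest for EGLN3 and CA9, whose bounds are the widest.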

Other observations

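The protein-coding genes within 3 Mb of each of the 10 genes were compared as a description of their surroundings. The genes shown were picked with their values in view. ADM, EGLN3 and VHL have the largest changes of the 10, so their places among neighbours largely restate these changes. ADM lay above 29 of 32 such neighbours, whose median change was 0.17, with 3 called higher and 3 lower. Of all genes tested, 4.67% were called higher and 4.61% lower. VHL lay above 34 of 38 neighbours, whose median was 0.06. All 20 neighbours of EGLN3 had a change above that of EGLN3, and their median was 0.08. Around NDRG1, 6 of 9 neighbours were listed higher, against 45.5% of all genes tested, and 3 were called higher, against 4.67%. Their median was 0.41, whereas NDRG1 itself was at -0.01, and 9 neighbours are few.

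The promoters of some genes of the other lists also held the core of the HIF binding sequence. BHLHE40, a HIF-induced transcription factor gene that was not called, had 4 matches to ACGTG in the 250 bases before its start. Of these, 2 overlap in the palindrome CACGTG, also an E-box. EGLN2 had 2 such matches at 1 of 2 starts, which overlap in 1 palindrome CACGTG. Of the genes called lower, AK4, LOX, CITED2 and CXCR4 had matches at 1 or more starts. Each of these genes had several starts, and windows of LOX and of CITED2 overlap. SLC2A1, also called lower, and RORA, called higher, had none in this window. Promoters of VEGFA, ARNT2 and CA2, which were called as well, are not described here. Among all promoters, 43.2% held a match and 7.76% held 3 or more. These shares count single promoters, so they are no measure for a gene with several starts.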
